A study of Mus musculus with 4 samples.

Results

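Among the probes of the array, some carry no transcript accession but only a stretch of the mouse genome as their name, with a letter F or R for its orientation. The intervals shorter than 10000 bases are described here. They were chosen by the form and length of the name alone, with no measured value, and number 2199 of 37889 differently named features. A further 2408 features carry such a name with a longer stretch, and 33282 have another kind of name. Only names, coordinates and orientation came with the probes, so whether an interval lies in a gene, an exon or an intron is not given here, and neither is the evidence for its transcription. The coordinates are of build mm9, the build that the file headers name, and each interval is given below as it is named on the array, with a final F or R. Which strand a letter stands for is not given in the sources used here.

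Much of a mammalian genome outside known genes is copied into RNA at a low level. Such RNA includes long intergenic non-coding transcripts, RNA copied from enhancers, antisense transcripts and unrecorded parts of nearby genes. Many of these transcripts are found in few cell types, and some are known regulators of blood cell formation. A probe for a stretch of genome reads any RNA that matches it, and does not tell these kinds apart.

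The RNA came from 4 fractions sorted from the bone marrow of female C57BL6 mice aged 8 weeks, with no genetic change or treatment given in the labels. Long-term haematopoietic stem cells (LT-HSC), which sustain blood formation for life, were sorted as CD34-negative, c-Kit-positive, Sca-1-positive and lineage-negative cells. Short-term stem cells (ST-HSC) had the same markers but were CD34-positive. Progenitors, which divide and are more restricted, were labelled c-Kit-positive and lineage-negative; another text of the labels makes them Sca-1-negative and mentions lineage-positive cells, so their gate is uncertain. The differentiated fraction was lineage-positive (Lin+ cells), a mixture of mature blood cells. The number of mice behind a sample is not given in the sources used here. Each fraction had 1 single-colour Agilent array, all 4 are labelled replicate 1, and all lay on the same slide. With a single array per fraction, differences have no check by replicates and no p-value. Values after ± are Feature Extraction's own error of a spot, carried into the difference, and leave out any spread between mice. In sorted bulk samples, fewer cells of a type and less RNA per cell cannot be told apart.

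A level is the log2 signal of an interval's brightest probe minus the 75th percentile of its array, with percentiles of 192 (LT-HSC), 217 (ST-HSC), 137 (progenitors) and 230 intensity units (Lin+ cells). Levels in the text follow that order of the fractions. Levels of different probes are not set against each other. An interval was called detected where its probe was flagged as well above background, a flag that marked 4 to 7 of 308 negative control spots on an array. Where a probe was detected on only 1 of the arrays compared, the dark array took the higher of its own signal and the lowest well-above-background signal there, and the difference is written as at least N-fold. Marker genes followed the sorting labels in part. Procr, a receptor of long-term stem cells, gave 4.44, 2.27, -0.52 and a signal not well above background in Lin+ cells. Slamf1, another marker of long-term stem cells, gave 0.59 in LT-HSC and -2.32 in progenitors and was dark in the other two fractions. Other markers went against a simple reading of the gates. Cd34 signal (7.34, 8.53, 7.51 and 3.26) was not low in LT-HSC, which were sorted without the protein. Ly6a, the gene of Sca-1, was as high in Lin+ cells (4.51) as in LT-HSC (4.52), and Itgam, a myeloid lineage antigen, gave 4.83 to 5.17 in all 4 fractions.

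The 2199 intervals cover 1964 different stretches of 20 chromosomes, 91 of the intervals lying on the X chromosome. For 235 stretches the array holds both orientations, for 887 only F and for 842 only R, which makes 1122 F and 1077 R intervals. Stretches run from 62 to 9987 bases, with a median of 996 bases, and 983 are under 1000 bases. Most intervals (1273) have 3 probes, 305 have a single probe and the largest number is 10. Many intervals are not independent places in the genome. Of the stretches, 673 lie inside a longer named interval, 373 overlap another short one and 1256 (64.0%) have another short one within 50000 bases.

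Fewer than 1 in 2 short intervals were detected in any single fraction. Lin+ cells had the most, 977 of 2199 (44.4%), followed by ST-HSC with 899 (40.9%), progenitors with 841 (38.2%) and LT-HSC with 758 (34.5%). Long intervals were detected more often on every array (from LT-HSC to Lin+ cells 43.8%, 51.7%, 48.6% and 54.0%), as were features with other names (49.2%, 51.3%, 48.9% and 53.5%). On all 4 arrays, a slightly larger share of R than of F intervals was detected, at 36.2%, 43.3%, 39.0% and 46.0% of R intervals and 32.8%, 38.6%, 37.5% and 43.0% of F intervals. Whether these shares differ beyond the spread between samples could not be tested with 1 array per fraction.

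Detection in all 4 fractions was the commonest outcome among detected intervals. In all, 628 short intervals (28.6%) were detected in every fraction, 121 in 3, 142 in 2 and 316 in 1, and 992 (45.1%) in none. Detection in every fraction applied to 38.6% of long intervals and 43.7% of other features, and detection in a single fraction to 13.2% and 7.83% against 14.4% of the short ones. Lin+ cells had the most intervals detected there alone, 151 (6.87%, long intervals 5.94%, other features 4.40%). Progenitors followed with 66 (3.00%, long 2.78%, other 0.967%), ST-HSC with 59 (2.68%, long 3.28%, other 1.36%) and LT-HSC with 40 (1.82%, long 1.16%, other 1.11%). Lin+ cells thus held the largest such share in all 3 kinds of feature. A further 73 intervals (3.32%) were detected in every fraction except LT-HSC, as were 3.24% of long intervals and 1.38% of other features. The LT-HSC array also detected the smallest share of all probes (40.9%, against 45.9% in Lin+ cells), and its part in these counts was not tested.

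**Figure D1:**
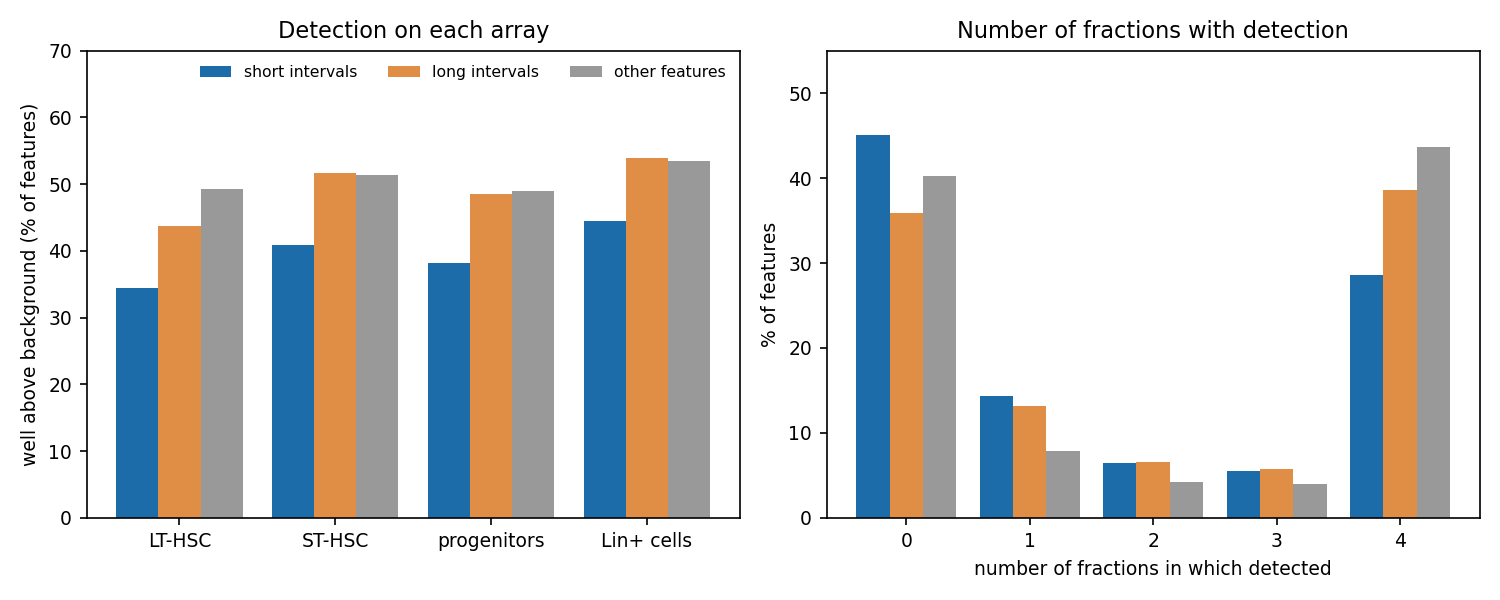
Left, the percentage of short intervals, long intervals and other features well above background on each array. Right, the percentage of each kind detected in 0 to 4 fractions. Short intervals have the lowest bar on every array, and 45.1% of them are detected in no fraction.

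The share of intervals detected went with length and with the number of probes, which themselves go together. Among the shortest stretches (62 to 459 bases) 42.7% of intervals were detected in at least 1 fraction, and among the longest (5381 to 9987 bases) 64.2%. By number of probes the share was 33.4% for intervals with 1 probe, 55.1% with 3 and 76.8% with 6 to 10. The probes of an interval often disagreed on detection. Of the 1273 intervals with 3 probes, 555 had no probe detected in any fraction, 395 had 1, 169 had 2 and 154 had all 3. The probe standing for an interval is its brightest, so an interval with more probes had more chances of a detected one. At probe level, the share detected in at least 1 fraction was 32.7% for short intervals, 33.8% for long intervals and 60.0% for other features. By chromosome it ran, over intervals, from 42.5% on chromosome 13 to 75.5% on chromosome 19, with 44.0% on the X chromosome.

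Some very short intervals were detected throughout. The shortest detected in every fraction, chr5:113772057-113772146_F, spans 90 bases under 1 probe and gave -1.93, -1.48, -0.80 and -1.75. It was highest in progenitors, 0.68 ± 0.23 above ST-HSC, and Lin+ cells differed from it by -0.95, both less than the 2-fold difference used for a call here. At the other end, the intervals closest to the length limit from below were chr3:21964899-21974885_F (9987 bases), detected in progenitors alone at -1.10, and chr11:102878974-102888924_F (9951 bases), whose brightest probe was dark on all 4 arrays. Just above the limit, both orientations of chr19:24978025-24988025 (10001 bases) were dark on every array.

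Many of the intervals detected in every fraction stayed close to the same level. The median range between an interval's highest and lowest fraction was 0.99 on the log2 scale over these 628 intervals, against 1.14 over all 16104 features detected in every fraction. A range under 1 was found for 327 of the 628 (52.1%), against 40.3% of all such features. A range of 4-fold or more was found for 62, which was not counted over all features and is no result about short intervals. The interval chr16:30939991-30940193_F gave 2.20, 2.04, 2.17 and 2.17, chr9:121846340-121848578_F gave -2.06, -2.16, -2.09 and -2.15, and chr14:79724027-79729152_R gave -0.43, -0.44, -0.54 and -0.57. Their differences between fractions lay inside the spot error. In each of the 3 intervals, the other probes were dark on all 4 arrays. The highest of the 4 levels fell in progenitors for 300 of the 628 intervals (47.8%, all features 45.1%). The lowest fell in Lin+ cells for 29.5% and in ST-HSC for 30.9%, while over all features Lin+ cells held the lowest level for 45.5% and ST-HSC for 16.6%. These ranks move with the scaling of the arrays. A scaling to spike-in controls shifted the median of all features for progenitors against ST-HSC from 0.29 to -0.34, so differences of intervals are best read against that of all features.

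ST-HSC were first set against LT-HSC, the CD34-positive against the CD34-negative stem cells. Few short intervals differed, and about as many were higher as lower. A difference of at least 2-fold, with detection on at least 1 of the arrays, was the call. By this call 58 of 962 intervals (6.03%) were higher in ST-HSC, where 5.84% of all features were, and 65 (6.76%) were lower, where 7.81% of all features were. These shares lie near the background and are no result about short intervals. The median measured difference was -0.04, against 0.02 over all features, and was 0.30 under spike-in scaling, against 0.37 over all features. Of the calls 47.2% were higher (all features 42.8%), and 67.7% were under spike-in scaling (all features 69.5%). Of the 123 calls, 77 were bounds with a dark array on one side, and 44 had another detected probe in the interval, whatever its direction. Another probe measured on both arrays had the same call for 13.

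The largest differences and bounds of each comparison were named only where no other detected probe of the interval went the opposite way. A shared direction of their probes in that comparison was thus set by the choice and is no check, while the sizes were not. Higher in ST-HSC by the largest measured difference was chr17:34018371-34019394_R, of 1024 bases. Its levels were 0.75, 2.92, 3.06 and 3.9998, so LT-HSC was the low fraction, ST-HSC and progenitors lay close to each other, and Lin+ cells stood 0.94 ± 0.20 above progenitors. ST-HSC exceeded LT-HSC by 2.17 ± 0.21, and the other 2 probes of the interval, at -0.86 against 1.23 and at 0.21 against 2.34, gave the same step. The single probe of chr5:35893909-35899497_F followed the same order, with 0.38, 2.21, 2.43 and 3.02 and a step of 1.83 ± 0.21. Another kind of pattern was a peak in ST-HSC. At chr2:126501651-126510026_F the levels were -1.31, 0.58, -0.58 and -1.62, highest in ST-HSC by 1.90 ± 0.24 over LT-HSC. Of its other probes, 1 was nearly level, between -2.59 and -2.24, and 1 was detected in Lin+ cells alone, at -1.98. At chr13:28947034-28949166_R the levels were -2.15 in LT-HSC and -0.40 in ST-HSC, a difference of 1.75 ± 0.30, and both later fractions were dark. A second probe of this interval repeated the step from -2.37 to -0.09.

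Lower in ST-HSC by the largest measured difference was chr3:152810906-152815072_R, with 0.59 in LT-HSC, -3.06 in ST-HSC and no detection in progenitors or Lin+ cells. The difference was -3.65 ± 0.34, and both other probes were dark everywhere. The interval chr4:127020290-127020504_F, 215 bases long, gave 0.86, -1.71, a dark signal and -1.49. Its difference of -2.57 ± 0.23 was repeated by its other probe, which went from 0.21 to -2.52. At chr8:123901815-123902167_R the level was -0.45 in LT-HSC and -3.01 in ST-HSC, and at chr14:99656262-99656858_R it was -0.79 and -3.10, differences of -2.55 ± 0.32 and -2.30 ± 0.35 that rested on 1 detected probe each. Detected in LT-HSC (0.54) and in no other fraction, chr12:70612456-70613074_R was at least 15.2-fold lower in ST-HSC. The interval chr8:111766396-111772271_F was seen in LT-HSC (-0.01) and progenitors (-0.91) and was dark in ST-HSC, at least 10.4-fold lower than in LT-HSC. The other probes of these last 4 intervals were dark on all 4 arrays.

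Progenitors were next set against ST-HSC, the step from stem cells to dividing precursors. By their brightest probe and under this scaling, more short intervals were higher in progenitors than lower. Higher calls numbered 167 of 1006 (16.6%), where 11.0% of all features were higher, and lower calls 87 (8.65%), where 9.35% of all features were lower. Long intervals gave 17.2% and 7.77%. With the mean of an interval's probes in place of the brightest, 49 of 519 short intervals and 1854 of 18932 features were higher, nearly the same share. By that mean 54 short intervals and 1696 features were lower. For the brightest probe, the median measured difference was 0.46, against 0.29 over all features and 0.54 over long intervals. It turned to -0.17 under spike-in scaling, with -0.34 over all features. The split of the calls moved with it. Under the scaling used here 65.7% of the calls were higher in progenitors, against 54.1% over all features. The share was 42.4% (all features 32.7%) when arrays were scaled to probes detected everywhere and 51.8% (40.1%) when scaled to the median of all probes. It was 40.4% (30.8%) when the median feature was set to 0 and 24.1% (15.5%) under spike-in scaling. The split over all features thus moved in the same way. For 106 of the 254 calls a second probe was detected on either array, whatever its direction, and 109 calls were bounds. Another probe measured on both arrays had the same call for 34.

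The largest measured difference was at chr12:74883691-74893323_R, 9633 bases long, with -1.72, -1.66, 1.501 and 0.26. Both stem cell fractions lay together and progenitors stood 3.16 ± 0.23 above ST-HSC, with Lin+ cells between. Its other probe was dark on all 4 arrays. A sharper peak was seen at chr6:31786292-31786599_R, where the levels were -1.33, -1.93, 0.44 and -1.98 and progenitors exceeded ST-HSC by 2.36 ± 0.25. A second probe of it peaked in progenitors as well but by less, with -1.49, -1.62, -0.73 and -1.68. The interval chr2:67834535-67834914_F was dark in LT-HSC and Lin+ cells and gave -2.63 in ST-HSC and -0.15 in progenitors, a difference of 2.48 ± 0.31, with both other probes dark throughout. At chr5:77084398-77086144_R only ST-HSC was dark. LT-HSC gave -0.28, progenitors 0.87 and Lin+ cells 1.097, and progenitors were at least 19.1-fold above ST-HSC, and its other probe was likewise dark in ST-HSC alone. Progenitors alone held chr5:14943275-14944205_F, at 0.74 and at least 17.5-fold above ST-HSC, with its second probe also detected only there (-1.77).

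Lower in progenitors were several intervals with more than 1 detected probe. At chr16:43623175-43624069_F the levels were 1.08, 1.51, -0.98 and 0.03, high in both stem cell fractions, and the difference was -2.49 ± 0.22. The other 2 probes repeated it, from 1.01 to -1.44 and from -0.05 to a dark signal. Farther along that chromosome, chr16:43635730-43639104_F, gave 0.61, 0.99, -0.95 and -1.56, a difference of -1.94 ± 0.22, and was low in Lin+ cells as well. Another of its probes, dark in progenitors, gave -2.20 in ST-HSC and -2.36 in Lin+ cells. At chr13:108653722-108654406_R the levels were 0.18, 0.68, -1.77 and -0.62, a difference of -2.45 ± 0.28, with lower signal in progenitors in both other probes too. At chr10:62267317-62269871_R they were 0.24, 0.60, -1.55 and -2.46, a difference of -2.15 ± 0.24. A bound with more than 1 detected probe was found at chr6:31233512-31241062_F. It was detected in LT-HSC (1.57) and ST-HSC (0.54) and dark in progenitors and Lin+ cells, at least 10.5-fold lower in progenitors than in ST-HSC, and its second probe had the same pattern at 0.93 and -0.17.

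Lin+ cells were set against progenitors for the step to mature cells, and against LT-HSC for both ends of the order. These comparisons share the Lin+ array, and the progenitor and LT-HSC arrays each serve in another comparison, so their values are given side by side. Against progenitors, 117 of 1084 short intervals (10.8%) were higher in Lin+ cells, where 13.9% of all features were, and 203 (18.7%) were lower, where 26.0% of all features were. Against LT-HSC, 141 of 1064 (13.3%) were higher, where 16.2% of all features were, and 155 (14.6%) were lower, where 20.1% of all features were. The shares called were below the background in both directions of both comparisons under this scaling. Under quantile normalization, 209 of 1084 short intervals and 4007 of 21179 features were lower in Lin+ cells than in progenitors, nearly the same share. Median measured differences were -0.32 against progenitors (all features -0.43) and 0.07 against LT-HSC (all features -0.15). Against progenitors the median turned to 0.07 when scaled to probes detected everywhere and to 0.25 under spike-in scaling, and against LT-HSC it turned to -0.19 under median scaling. Of the calls against progenitors 36.6% were higher (all features 34.9%). The share was 61.2% (all features 59.8%) when scaled to probes detected everywhere, 64.8% (62.6%) with the median feature set to 0 and 72.3% (70.8%) under spike-in scaling. Of the calls against LT-HSC 47.6% were higher (all features 44.7%). The share was 34.7% (all features 32.7%) under median scaling, 57.9% (52.7%) with the median feature at 0 and 66.9% (60.0%) under spike-in scaling. Another probe was detected on either array, whatever its direction, for 137 of 320 calls against progenitors and 138 of 296 against LT-HSC. Another probe measured on both arrays had the same call for 45 and 50.

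**Figure D2:**
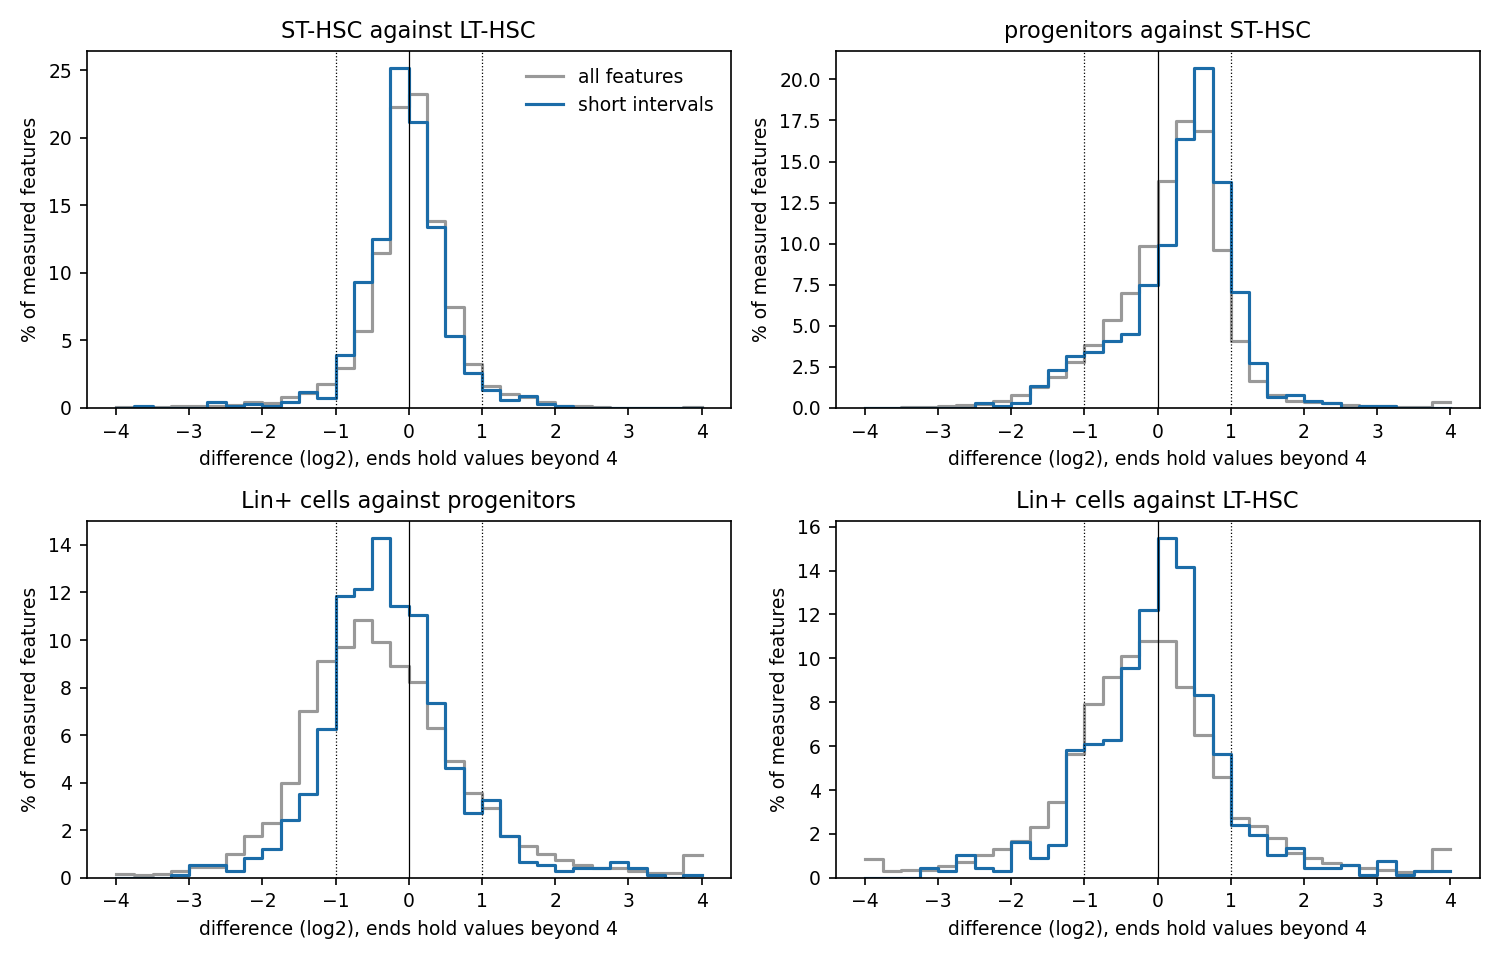
Distribution of the differences measured on both arrays of each comparison, in log2 units, for short intervals and for all features, as a percentage of each. The short intervals centre at -0.04 for ST-HSC against LT-HSC, at 0.46 for progenitors against ST-HSC, at -0.32 for Lin+ cells against progenitors and at 0.07 for Lin+ cells against LT-HSC.

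The largest measured difference of any named interval was a gain in Lin+ cells. At chr4:119923882-119924244_R, 363 bases long, the levels were -1.60, -1.64, -1.60 and 4.54. The first 3 fractions were level, and Lin+ cells exceeded progenitors by 6.14 ± 0.26. The interval's other probe was dark on all 4 arrays, Lin+ cells included. The same held for chr7:86662963-86663649_F, with -0.41, -0.68, -0.03 and 3.39, a difference of 3.42 ± 0.21 from progenitors and 2 other probes that were dark throughout.

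For a pair of intervals, all 5 probes were detected in Lin+ cells. At chr8:26212577-26218527_R the brightest probe was dark in LT-HSC and progenitors and gave -2.60 in ST-HSC and 2.86 in Lin+ cells. Lin+ cells were at least 53.0-fold above progenitors and at least 55.7-fold above LT-HSC. Its other probes gave 2.43, 0.75, 0.87 and 2.58 in Lin+ cells and were dark in every other fraction. The opposite orientation of the same stretch, chr8:26212577-26218527_F, was detected everywhere at 0.69, 1.27, 0.49 and 0.74, with no difference of 2-fold in any comparison. At chr6:120670699-120677449_F the brightest probe gave -2.41, a dark signal, -1.63 and 1.33, so Lin+ cells were 2.96 ± 0.24 above progenitors and 3.74 ± 0.29 above LT-HSC. The other 4 probes were detected in Lin+ cells only, at 0.34, 0.54, 0.81 and -1.12. The R intervals of both this stretch and the next were dark on all arrays.

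That next stretch, chr13:81773237-81783062_F, spans 9826 bases under 8 probes and gave -1.18, -1.32, -1.11 and 2.06. Lin+ cells were above progenitors by 3.16 ± 0.22, and 1 of the other 7 probes was detected, in Lin+ cells alone at -0.83. A return to a high level was seen at chr6:31078802-31079644_R, with 0.64, 0.12, -1.57 and 1.63, where progenitors were the low fraction and Lin+ cells exceeded them by 3.20 ± 0.24. Of its other 2 probes, 1 was low in progenitors too, and the other gave -0.21 there and 0.79 in Lin+ cells. Single probes stood for chr11:95657291-95657772_R, detected at 1.25 in Lin+ cells alone and at least 17.4-fold above progenitors, and for chr1:36086491-36087863_R, with -2.82 in ST-HSC and 0.89 in Lin+ cells. At chr3:137742666-137744470_F the levels were -2.27 in LT-HSC and 1.01 in Lin+ cells, a difference of 3.28 ± 0.33, and the fractions between were dark.

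Of the intervals lower in Lin+ cells, several were high in all 3 earlier fractions. At chrX:155945151-155945654_R the levels were 1.16, 1.48, 1.13 and -1.89, so Lin+ cells differed from progenitors by -3.02 ± 0.23, and a second probe went from -1.03 to a dark signal. At chr19:46422690-46423478_R they were 1.05, 0.45, 0.76 and -2.01, with a difference of -2.77 ± 0.24 that both other probes repeated (0.06 to -2.41 and 0.14 to -2.91). At chr2:104657075-104658840_F they were 0.68, 0.65, -0.13 and -2.13, and all 3 probes were low in Lin+ cells. A decrease spread over the steps was seen at chrX:91000651-91005855_R, with 2.02, 1.58, 0.44 and -1.02, a difference of -3.04 ± 0.22 between Lin+ cells and LT-HSC; its other probe gave 1.75, 0.87, -0.36 and -1.13.

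Other intervals low in Lin+ cells had their highest level in progenitors by their brightest probe. At chr4:114627748-114632898_R ST-HSC gave -2.45, progenitors 0.36 and Lin+ cells -2.52, and at chr8:83210957-83219451_F and chr6:51794614-51795280_R progenitors gave -0.16 and -0.17 and Lin+ cells -3.07 and -3.04. Their differences from progenitors lay between -2.91 and -2.87. Of these, only the chromosome 8 interval had a second probe detected in progenitors. Some of the other probes were detected in ST-HSC alone, 3 at chr4:114627748-114632898_R (-2.80, -2.57 and -2.74) and 1 at chr6:51794614-51795280_R (-1.97). The single probe of chr5:53937589-53938561_R gave -1.61, -1.13 and 0.65 and was dark in Lin+ cells, at least 17.3-fold lower than in progenitors.

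A stricter rule asked for an interval at least 4-fold above each other fraction. Of the 1207 intervals detected anywhere, 14 met it in LT-HSC (1.16%), where 0.884% of all features detected anywhere met it. In ST-HSC 6 met it (0.497%, all features 0.256%), in progenitors 20 (1.66%, all features 0.672%) and in Lin+ cells 25 (2.07%, all features 3.96%). Most rested on a single probe. For LT-HSC, 13 of the 14 had another probe and 4 had it detected in that fraction. The corresponding numbers were 0 of 6 in ST-HSC, 2 of 20 in progenitors and 9 of 21 in Lin+ cells. Detection in the named fraction alone applied to 9, 6, 15 and 6 of them. With the mean of an interval's probes in place of the brightest, the rule was met by 2, 0, 1 and 13 intervals, with no count of how many of them are the same.

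The intervals that led these groups had different depths of support. In LT-HSC they were chr12:70612456-70613074_R, chr3:152810906-152815072_R, chr2:145501249-145508811_F (-0.28 in LT-HSC) and chr1:153701048-153701634_F (-0.33), the latter pair dark in every other fraction. In ST-HSC chr5:92340425-92342429_R gave 0.26, chr4:124202159-124202824_F 0.20, chr12:21380896-21387071_F -0.28 and chr12:109274248-109274547_F -0.31, and these brightest probes were dark elsewhere. At chr12:21380896-21387071_F another probe was detected in Lin+ cells alone (-2.68), and chr12:21381390-21381723_F, which lies inside it, was highest in progenitors, at -0.87 against -3.01 in ST-HSC. The interval chr5:92340425-92342429_R was at least 8.77-fold above progenitors and 9.22-fold above LT-HSC. In progenitors chr6:31052845-31054580_F gave 0.45, chr12:109619407-109619843_F 0.15 and chr16:40471828-40472481_F 0.12, again dark elsewhere. The progenitor array has the lowest signal at its 75th percentile and the highest floor in scaled units (-2.87, against -3.47 in Lin+ cells), and the part of this in the counts was not tested.

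**Figure D3:**
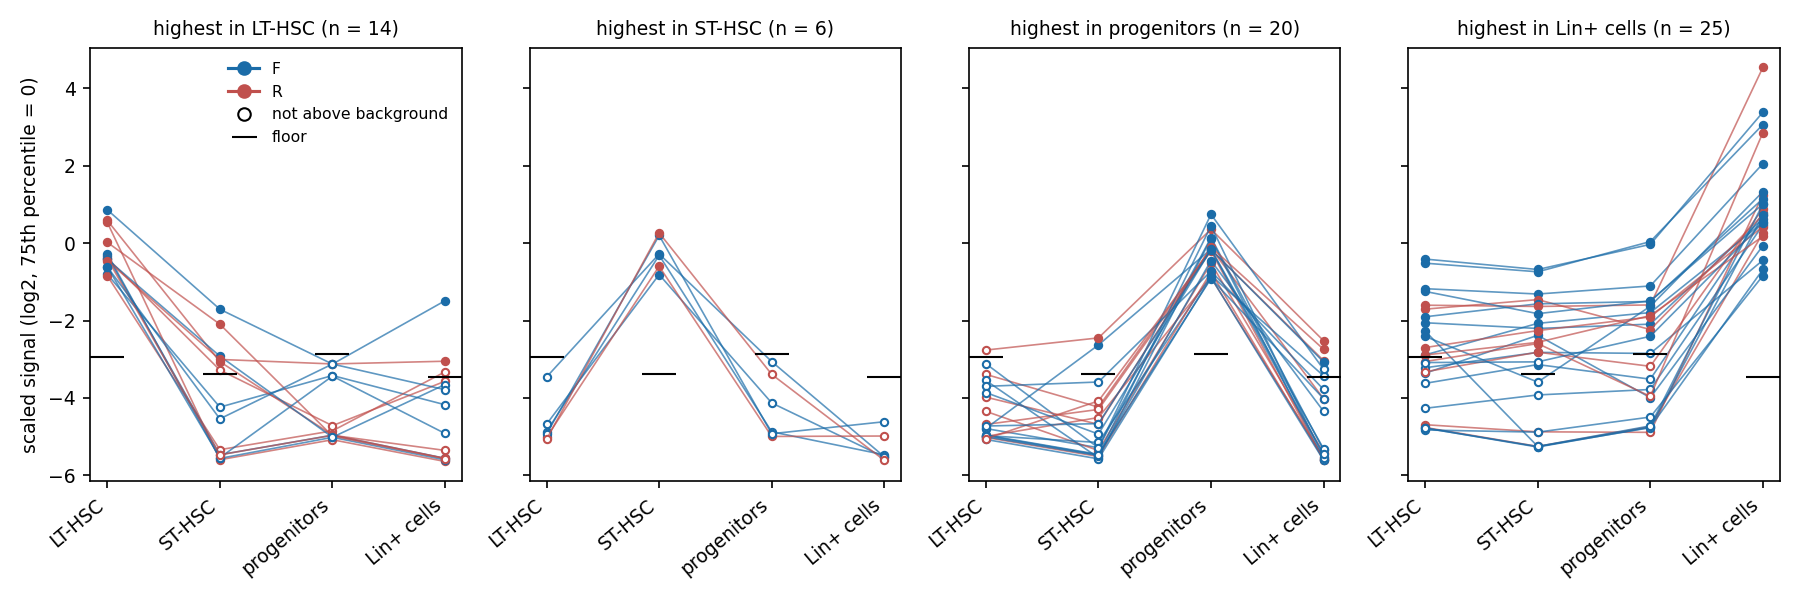
Levels in each fraction, in log2 relative to the 75th percentile of the array, of the intervals at least 4-fold above each other fraction, 1 line per interval and 1 panel per fraction. Most of the 20 progenitor intervals and all 6 ST-HSC intervals are dark elsewhere, while the Lin+ panel holds the interval with the largest gap, 70.6-fold.

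Steady change along the order of differentiation was rare. No short interval of the 1207 was at least 1.5-fold higher at each of the 3 steps, where 0.331% of all features were, and 1 was lower at each, where 0.787% of all features were. That interval, chr17:87674225-87682154_R, spans 7930 bases and gave -0.47, -1.17, -1.80 and -3.15. A second probe gave -0.46, -1.04, -2.00 and -3.29 and another -1.49 and -1.89, dark in the later fractions. Another of its 6 probes was detected in Lin+ cells alone, at 0.27. By calls at the 3 steps, 712 of the 1207 detected intervals had no call at any step, which does not exclude a larger change over several steps or beyond a bound. The commonest changing pattern, in 96 intervals, was level, higher in progenitors, then lower in Lin+ cells. A change at the last step only was found for 84 intervals that were higher and 81 that were lower in Lin+ cells. These patterns were not counted over all features, so their counts are no result about short intervals. The commonest pattern uses the progenitor array in both of its changes, and calls with that array moved with the scaling. In 5 groups of length, medians were alike but counts of calls were less so. The median for progenitors against ST-HSC stayed between 0.39 and 0.49, and that for Lin+ cells against progenitors between -0.44 and -0.16. Higher calls in Lin+ cells against progenitors, however, were 8 of 151 in the shortest group (28 lower) and 36 of 208 in the middle group (40 lower), and lower calls in progenitors against ST-HSC were 26 of 201 in the group of 1850 to 5380 bases and 20 of 332 in the longest.

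Both orientations of a stretch could be compared for the 235 stretches that have them. In at least 1 fraction both were detected for 109, F alone for 43, R alone for 59 and neither for 24. Where both were measured on both arrays, the difference in F and in R correlated weakly. Pearson's r was 0.12 over 57 stretches for ST-HSC against LT-HSC, 0.41 over 58 for progenitors against ST-HSC, 0.42 over 59 for Lin+ cells against progenitors and 0.32 over 54 for Lin+ cells against LT-HSC. These are descriptions across stretches that share arrays and are not replicates. Both orientations were called together for 1, 5, 10 and 6 stretches, and in the same direction for 0, 3, 8 and 5 of them. As groups, F and R intervals were nearest in ST-HSC against LT-HSC, where 6.22% of F and 5.85% of R intervals were higher. In progenitors against ST-HSC 17.8% of F and 15.4% of R intervals were higher and 9.51% and 7.81% were lower. In Lin+ cells against progenitors 12.4% of F and 9.17% of R intervals were higher. In Lin+ cells against LT-HSC 81 F intervals were higher and 72 lower, while 60 R intervals were higher and 83 lower. Whether F and R differ could not be tested with these arrays.

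**Figure D4:**
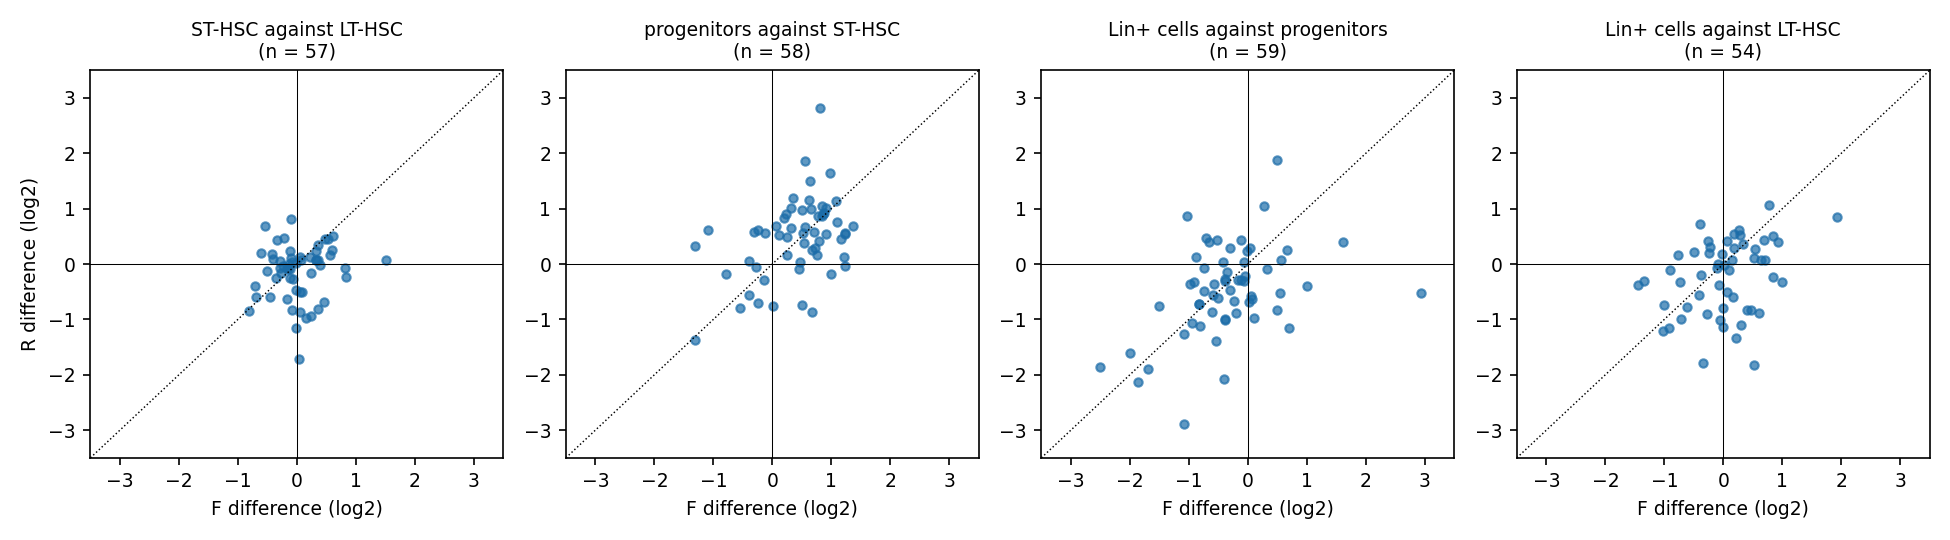
Difference of the R interval against that of the F interval of the same stretch, in log2, 1 point per stretch measured in both orientations and 1 panel per comparison, with a dotted line of equality. Points scatter widely about the line, with Pearson's r from 0.12 to 0.42.

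The opposite calls were few. At chr6:31233512-31241062, the F interval was detected in LT-HSC and ST-HSC only and was at least 32.9-fold lower in Lin+ cells than in LT-HSC. The R interval was detected in Lin+ cells only (-1.23), at least 3.27-fold above LT-HSC, and its other probe was dark on all 4 arrays. At chr12:88216358-88221647 the F interval was detected in ST-HSC alone (-0.81) and the R interval in LT-HSC (-2.13) and progenitors (-1.70) but not in ST-HSC. Each rested on 1 probe, with the other 4 probes of each orientation dark on all arrays. The overlapping chr12:88216447-88224965_F was detected in every fraction, at -0.85, -0.87, -0.09 and -0.91. At chr8:59994074-60002058 the F interval gave -3.10, -1.89 and -0.71 from ST-HSC to Lin+ cells, with all 5 probes detected in Lin+ cells, and the R interval was seen in progenitors alone (-1.90) by 1 probe. At chr15:102100397-102105872 the F interval was likewise seen in progenitors alone (-1.87) by 1 probe, with its other probes dark. The R interval gave -1.72, -1.64, -1.17 and -0.01. Among stretches detected in both orientations in every fraction, the most probes were at chr14:65431652-65437902. There F gave 0.39, 0.47, 0.23 and 0.11, and R gave -0.87, -0.79, -1.50 and -1.78. At chr2:153163620-153170845, the brightest R probe was lower along the order, with 0.25, -0.59, -1.32 and -1.53. Of the 9 R probes, 8 were detected with LT-HSC as the highest fraction. Some of them were higher in Lin+ cells than in progenitors (-2.07 against -2.42 at 1 probe), and others were lower. F gave -2.04, -2.86, -2.35 and -2.40.

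Neighbouring short intervals of the same orientation changed alike more than distant ones did. Of 685 pairs of successive intervals within 50000 bases of each other, 78 to 93 were measured in both members in a comparison, with Pearson's r of 0.45, 0.62, 0.49 and 0.65 in the order of the comparisons. Successive intervals farther apart gave 0.10, -0.09, 0.04 and -0.08 over 144 to 175 pairs. Of the near pairs, 195 overlap, and these gave 0.63, 0.61, 0.65 and 0.73. Near pairs that do not overlap gave 0.36, 0.71, 0.30 and 0.52 up to 5000 bases and 0.29, 0.54, 0.61 and 0.66 beyond, over 17 to 30 pairs each. Overlapping intervals can read the same RNA, and an interval can belong to more than 1 pair, so the pairs are not independent. Short intervals inside a longer interval of the same orientation gave r of 0.28 to 0.40 with it, and of the opposite orientation 0.08 to 0.28.

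**Figure D5:**
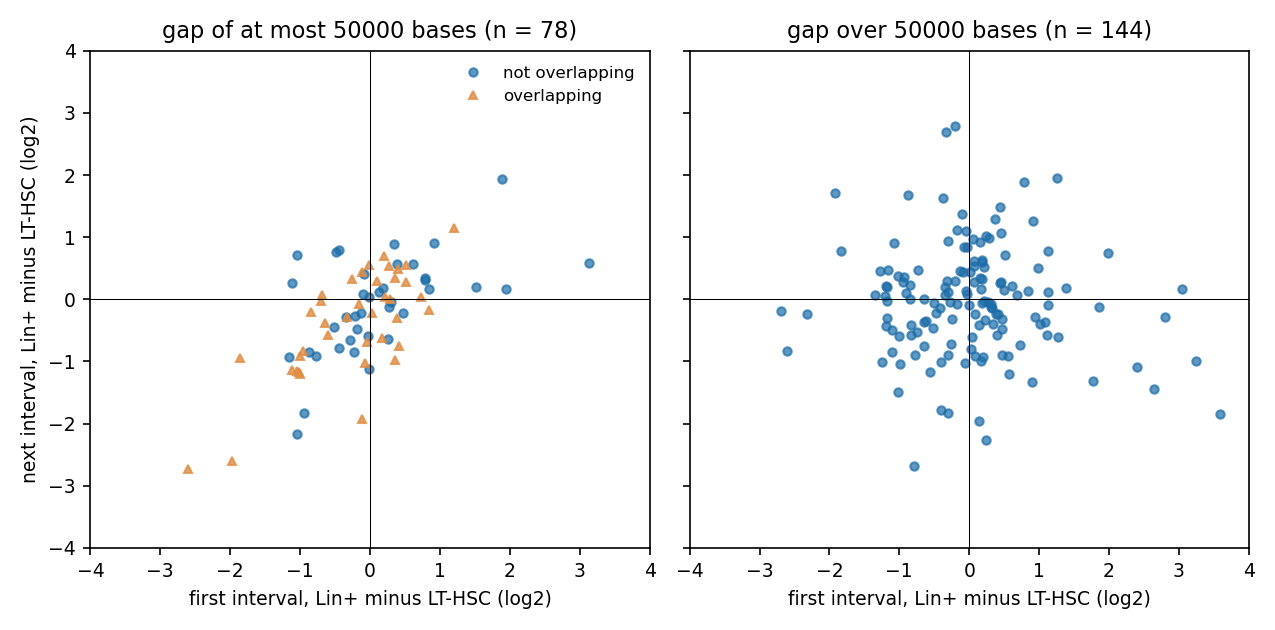
Difference of Lin+ cells from LT-HSC, in log2, in a short interval against that in the next one of the same orientation, with triangles for overlapping pairs. The panel of pairs within 50000 bases (n = 78, r = 0.65) shows the points along the diagonal, and the panel of more distant pairs (n = 144, r = -0.08) does not.

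Some runs of at least 3 neighbours had the same call. Runs were named only where at least 3 intervals were called and all called ones went the same way. Their shared direction was thus set by the choice and is no check, and runs of mixed direction are not given here. On chromosome 6, between 54591416 and 54597566, all 4 short intervals were lower in Lin+ cells than in LT-HSC. The 6151-base interval chr6:54591416-54597566_F gave 1.56, 1.05, 0.21 and -1.05, a difference of -2.61 ± 0.22, and all 5 of its probes had that order of fractions. The 750-base chr6:54595084-54595833_F inside it gave 0.66, 0.14, -0.39 and -2.07. The R interval of the same 6151 bases gave -1.94 and -2.07 in the stem cell fractions and was dark in the other two, at least 2.87-fold lower in Lin+ cells than in LT-HSC. The stretches overlap, so the run is a single place in the genome.

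On chromosome 16, between 84702353 and 84710928, 4 of 5 intervals were lower in progenitors than in ST-HSC and the remaining interval was dark. The F and R intervals of the whole 8576 bases gave -0.67, -0.20, -1.51 and -1.69 and -0.21, 0.25, -1.12 and -1.41, differences of -1.31 ± 0.25 and -1.37 ± 0.23. The 112-base chr16:84708695-84708806_F gave 0.68, 1.40, -0.10 and -0.24. By their brightest probes, both orientations thus had their highest level in ST-HSC and lower levels in progenitors and Lin+ cells. Of the other R probes, 1 was lowest in progenitors (-1.61, against -1.45 in Lin+ cells) and 1 in Lin+ cells (-2.16, against -1.59 in progenitors). On chromosome 5, between 121765763 and 121792814, 3 of 4 F intervals were higher in progenitors, led by chr5:121778090-121779622_F with 1.58, 1.12, 2.36 and 3.23, and all 3 of its probes ranked the fractions alike.

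On chromosome 10, between 96096995 and 96103867, 3 of 4 F intervals were higher in Lin+ cells than in LT-HSC. The interval chr10:96098058-96098623_F gave 0.22, 0.67, -0.53 and 2.31, a difference of 2.09 ± 0.21, and both other probes were highest in Lin+ cells. At chr10:96103732-96103867_F, 136 bases long, the levels were -1.30, -0.81, -1.66 and 0.63. On chromosome 19, between 44651000 and 44657612, 3 intervals were lower in Lin+ cells than in progenitors, all dark in Lin+ cells. The longest of them, chr19:44651106-44657612_F, was detected in progenitors alone (-1.27) by 2 of its 5 probes.

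A run on chromosome 17 lay between 39979941 and 39985688. Its 4 intervals were detected in every fraction by each of their probes. The interval chr17:39982023-39983277_F gave 9.96, 9.97, 10.45 and 9.44, and chr17:39983902-39985688_F gave 8.34, 8.72, 9.32 and 7.89. In R orientation chr17:39979941-39981793_R gave 4.73, 4.88, 5.33 and 3.78, and chr17:39980973-39981876_R gave 5.24, 5.45, 5.83 and 4.41. Progenitors held the highest and Lin+ cells the lowest level of each. Lin+ cells differed from progenitors by -1.56 to -1.01 with an error of 0.20 each, but under quantile normalization chr17:39982023-39983277_F came to 0.04. Other runs were less even. Between 95443225 and 95503399 on chromosome 3, for instance, 3 of 9 intervals were higher in progenitors than in ST-HSC and 6 were detected at all, and between 88172043 and 88252540 on chromosome 12, 3 of 7 were lower in Lin+ cells than in LT-HSC.

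The probes of an interval mostly gave the direction of its brightest one where they could be measured. Among calls with another probe measured on both arrays, all such probes had the same direction for 20 of 22 calls in ST-HSC against LT-HSC, 47 of 54 in progenitors against ST-HSC, 64 of 74 in Lin+ cells against progenitors and 58 of 70 in Lin+ cells against LT-HSC. Over 403 to 435 such probes, r with the brightest probe was 0.68 to 0.77. These probes share the array and the interval, and most calls had none to check them.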

How the data were processed

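Per the file headers, the deposited scanner files hold linear spot intensity from Agilent Feature Extraction 10.7.1.1 (a version the submitters' processing notes also give), background-subtracted within each array and not scaled between arrays. The authors' deposited value table holds a linear ratio per probe, which equalled that signal divided by 1 constant per array (191, 217, 137 and 230) within 1% for 100% of single-spot probes. The medians of its columns were 0.0619, 0.0630, 0.0704 and 0.0738. It served as an alternative. Per the labels' protocols, 10 ng of RNA was amplified and labelled with Cy3.

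Outlier-flagged spots and control spots were left out, which dropped 3 of 55681 probes and left 6603 on the short intervals; no spot was saturated. Spots of a probe were averaged on the log2 scale (a log2 value computed from the deposited intensity), and each array's 75th percentile over all non-control probes was subtracted. The probe with the highest mean stood for an interval. Floors for dark probes were -2.94, -3.39, -2.87 and -3.47. The comparisons were fold calls without a test over all features, since there is 1 array per fraction. Precision is limited by the number of arrays. The calling steps were tested on simulated data in which every feature was well above background and spot error was the only noise. The simulated calls thus held no bounds and no spread between mice. The median spot error of a level was 0.165 to 0.170.

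The named intervals are, outside chromosome 18, the largest measured differences and bounds each way in each comparison (where no other detected probe went the opposite way), those 4-fold highest in a fraction, steady changes, opposite orientations, runs of at least 3 called neighbours, those nearest the length limit, the most level, the shortest detected and those with the most probes. Runs were taken only where all called intervals went the same way. The opposite orientations of 3 named stretches were added after their values were seen. Members and rules were chosen with earlier results of these data known. No sequences were used, and some marker genes are not reported here. Alternatives were another percentile, median, quantile, spike-in and centred scaling, normexp background correction, the mean of probes, other background filters, the value table and a limit of 5000 bases. Python 3.11.15, pandas 2.3.3, NumPy 2.4.6, Matplotlib 3.10.9, R 4.3.3 and limma 3.58.1 were used.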

Additional observations from a re-analysis of the deposited data

How the results depend on the processing

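Counts are given as higher and lower calls of short intervals in the order ST-HSC against LT-HSC, progenitors against ST-HSC, Lin+ cells against progenitors and Lin+ cells against LT-HSC. Unless given, the numbers tested are 962, 1006, 1084 and 1064 short intervals and 20049, 20259, 21179 and 21410 features. The counts are best read against those of all features. Of 180 alternative values of the summary results, 101 stayed close to the reported value (counts within 1.5 times) and 79 moved, all given here. Gaps between medians by length counted as close within 0.25, and shares of F and R calls within a binomial interval of the reported share. That interval rests on at most 10 stretches and is wide, so a share that stayed close says little. No alternative moved with the deposited value table, the median of all probes or quantile normalization. The value table is the same signal over 1 constant per array, so it could hardly move. Scaling to probes detected everywhere gave 95 higher in the second comparison (all features 1342) and 180 and 114 in comparison 3 (all features 4330 and 2906). Spike-in scaling gave 105 higher in the first, 61 and 192 in the second, 240 and 92 in comparison 3 and 212 higher in the last, and 13 highest in progenitors. Over all features it gave 2290 higher, 840 and 4581, 5208 and 2145, and 4614 higher. With the median feature set to 0, the second gave 93 and 137 (all features 1286 and 2884) and comparison 3 gave 195 and 106 (4532 and 2702). Normexp on the median signal, chosen after seeing the data, gave 14 and 24, 53 and 21, 44 and 90, and 60 and 64, with 1, 0, 0 and 10 intervals highest in LT-HSC, ST-HSC, progenitors and Lin+ cells. Over all features it gave 579 and 754, 937 and 924, 1908 and 3188, and 2361 and 2809. Normexp on the median was run because the planned correction on the mean signal could not be run on these columns. The mean of an interval's probes gave 21 and 32 of 499, 49 and 54 of 519, 56 and 76 of 559, and 59 and 75 of 554, with 2, 0, 1 and 13 highest. Over all features it gave 1054 and 1412 of 18797, 1854 and 1696 of 18932, 2732 and 4996 of 19819, and 3193 and 3967 of 20105. Detection required on both arrays gave 22 and 24 of 695, 90 and 55 of 734, 64 and 116 of 734, and 66 and 83 of 671, with 0, 0, 0 and 10 highest. Over all features it gave 758 and 932 of 17380, 1461 and 1343 of 17264, 1877 and 4606 of 17212, and 2176 and 3130 of 16887. Without a background filter the counts, each of 2199, were 167 and 173, 360 and 206, 275 and 395, and 328 and 275, with 37, 22, 50 and 65 highest. Over all 37889 features they were 2303 and 2853, 4166 and 3139, 4527 and 7445, and 5292 and 5723. A limit of 5000 bases leaves fewer intervals. It gave 105 higher of 635 in the second, 130 lower of 690 in comparison 3 and 102 lower of 673 in the last. There were 9 highest in LT-HSC, and 468, 559, 527 and 613 detected in the 4 fractions. The percentage of stretches whose F and R calls went the same way, from at most 10 stretches, moved to 100 in the first comparison under spike-in scaling, to 0 in the second under normexp and to 100 in the last 3 comparisons under the mean of probes or detection on both arrays, and to 100 for Lin+ cells against progenitors under normexp.

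Over 175 named differences and 1607 alternative values, 1440 kept their direction and call, 165 lost the 2-fold size and 2 turned. Part of this was fixed in advance. The value table (175 kept), detection on both arrays (95) and no background filter (175) leave a measured value nearly unchanged, drop a bound or enlarge it. The mean of probes kept 82, with 29 weaker and 1 turned, and normexp kept 112, with 63 weaker. The 2 that turned were Lin+ cells against progenitors at chr2:126501651-126510026_F, 0.67 with the mean of its probes, and at chr17:39982023-39983277_F, 0.035 under quantile normalization. The cause was not tested, other than that some alternatives use fewer intervals. No paired analysis was possible because each fraction has 1 array and all are numbered replicate 1, and for the same reason no array could be left out. Signal over background limits the rest, since 992 intervals were dark on every array.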
